A study of Mus musculus with 12 samples.

Results

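The 10 genes described here are immediate early genes, taken by symbol from a table of 11806 genes: Nr4a1, Sik1, Klf6, Fos, Jun, Junb, Jund, Egr1, Ier2 and Btg2. All 10 were present, and all 10 had a total high enough to be given an adjusted p, which 10963 genes had. They were chosen by symbol and selected on the fold changes and p-values of this same comparison, so their values are a description and carry no test of their own as a list. The table sets 6 vitrified follicles against 6 fresh ones, each a single follicle from CD-1 mice, an outbred stock, aged 16 days. Vitrification is cryopreservation by cooling into a glass-like solid. Follicles of both groups were sealed one by one in 0.5% alginate, held for 30 min in medium with 1% serum, and then cultured over 8 days. Their medium held recombinant follicle-stimulating hormone at 10 mIU/mL, insulin at 5 µg/mL and bovine serum albumin at 3 mg/mL, besides fetuin, transferrin and selenium, and 50 µl of each 100 µl well was replaced every other day. The sources used here give neither the vitrification procedure, nor the time from the last change of medium to lysis, nor the number of mice. Separate mice are not named, so a p-value measures the spread between follicles, which may share an animal. No value per follicle was at hand, and each gene is given below by its total, a value pooled over the libraries, and by its log2 fold change, vitrified over fresh. The standard error of that difference was derived by dividing it by the normal quantile of its p-value, and the 95% interval follows from it.

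Immediate early genes are switched on within minutes of a stimulus by transcription factors already present in the cell, with no need for new protein, and most of their messengers are short-lived. Growth factors, serum, stretch and gonadotropins acting through cyclic AMP all induce them, by way of serum response factor with its Ets partners and of CREB. In the ovary, follicle-stimulating hormone and luteinizing hormone induce several of them in granulosa cells, and handling of cells or tissue is a known inducer as well.

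In short, none of the 10 passed the adjusted threshold. Nr4a1, Sik1 and Klf6 had lower values in vitrified follicles with an unadjusted p under 0.05. Fos, Jun, Junb, Jund, Egr1, Ier2 and Btg2 also had values below 0, but with errors so wide that for each the 95% interval allows a level at least 2.35-fold lower or 1.29-fold higher. Wide errors were the common feature of 8 members, including the 6 with the highest totals.

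The sequences in front of these genes are shown first, because signals reach immediate early genes through their promoters. RefSeq promoters in GRCm38.p6, from 250 bases before to 50 after the start site, were held for 7 members: Nr4a1, Klf6, Fos, Jun, Junb, Jund and Btg2. In the 4 printed here, capitals mark, on either strand, the cyclic AMP response element TGACGTCA and its core TGACG, the TATA box TATAAA, and the sequences GCGGGGGCG or GCGTGGGCG, which EGR proteins bind. Nr4a1, Fos and Btg2 are shown because they hold most of these matches, and Klf6 because it holds none of them.

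Nr4a1 (chr15:101266596-101266895, plus strand): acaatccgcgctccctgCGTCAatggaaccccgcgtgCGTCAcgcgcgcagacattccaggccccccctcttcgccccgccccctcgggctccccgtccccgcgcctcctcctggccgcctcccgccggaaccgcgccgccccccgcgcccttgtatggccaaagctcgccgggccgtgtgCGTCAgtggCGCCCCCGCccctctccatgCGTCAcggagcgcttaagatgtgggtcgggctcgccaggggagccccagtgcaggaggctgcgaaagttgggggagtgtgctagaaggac
Klf6 (chr13:5861239-5861538, plus strand): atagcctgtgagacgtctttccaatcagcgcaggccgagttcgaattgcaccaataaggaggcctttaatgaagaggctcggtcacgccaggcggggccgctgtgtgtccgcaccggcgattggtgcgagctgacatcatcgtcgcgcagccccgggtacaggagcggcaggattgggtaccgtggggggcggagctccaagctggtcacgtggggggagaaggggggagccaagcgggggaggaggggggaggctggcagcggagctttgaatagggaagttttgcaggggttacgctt
Fos (chr12:85473640-85473939, plus strand): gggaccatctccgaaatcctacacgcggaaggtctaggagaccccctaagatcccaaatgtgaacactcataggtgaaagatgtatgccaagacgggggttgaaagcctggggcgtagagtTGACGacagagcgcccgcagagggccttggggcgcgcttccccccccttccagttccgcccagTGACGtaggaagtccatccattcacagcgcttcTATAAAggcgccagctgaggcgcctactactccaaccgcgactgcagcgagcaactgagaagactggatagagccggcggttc
Btg2 (chr1:134079106-134079405, minus strand): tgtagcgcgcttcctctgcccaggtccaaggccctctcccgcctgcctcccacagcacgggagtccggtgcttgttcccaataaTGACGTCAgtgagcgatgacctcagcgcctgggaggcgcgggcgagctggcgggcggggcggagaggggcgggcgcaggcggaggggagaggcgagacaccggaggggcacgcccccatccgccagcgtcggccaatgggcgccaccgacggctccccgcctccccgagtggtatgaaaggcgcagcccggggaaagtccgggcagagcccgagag

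TGACG, searched on both strands, was found in 4 of the 7 promoters, against 32.1% of the 10280 promoters of tested genes. Nr4a1 held 4 matches, centred at -231, -211, -67 and -38 bases from the start site and all read as CGTCA on the printed strand, and 0.564% of promoters of tested genes held at least 4. Fos held 2, Junb 1, and Btg2 the full palindrome TGACGTCA, which holds TGACG once on each strand. The full element was found in 3.16% of promoters of tested genes. TATAAA was found in Fos, at -33 to -28 bases from the start, and in Junb, against 6.79% of promoters of tested genes. The Junb match begins at the RefSeq start site itself, which lies 30 bases upstream of the GENCODE start. GCGGGGGCG or GCGTGGGCG was found in Nr4a1 alone among the 7 (6.90% of promoters of tested genes), overlapping a GC box. The GC box GGGCGG was in 5 of the 7 (65.0%) and the Ets sequence CCGGAA in Nr4a1 (29.0%). The AP-1 sequence TGACTCA (3.37%) and the CArG box bound by serum response factor (1.27%) were in 0 of the 7 windows, which says only that these letters are not within them. The Jund window rests on a RefSeq start 1210 bases upstream of the first base of the GENCODE gene, and thus outside it. That of Nr4a1 rests on a start 12577 bases downstream of the first base of its GENCODE gene, and thus within it. Whether a GENCODE transcript of Nr4a1 begins at the RefSeq start was not looked up.

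**Figure D1:**
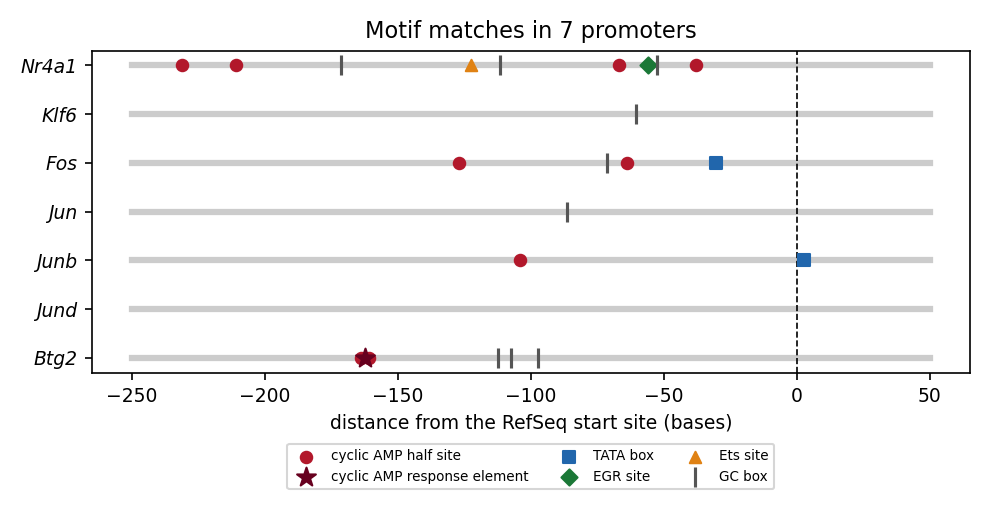
Motif matches on either strand in the promoters of 7 members, by distance from the RefSeq start site in bases (dashed line). Nr4a1 shows 4 TGACG matches and Fos 2 with a TATA box, and Klf6 and Jun show a GC box alone and Jund no match.

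The pentamer ATTTA, the core of AU-rich elements that shorten the life of a messenger, occurred in the 3' untranslated region of 9 of the 10 members, against 70.1% of the 9759 tested genes with such a region, and its density was above the median of those genes in 9. Densities were 5.52 per kb for Nr4a1, 4.91 for Fos, 4.12 for Junb and 3.24 for Jun, against a median of 1.36 for tested genes. Ier2 had 0 in 755 bases. The longer element TTATTTATT was found in Fos only among the members (7.69% of those tested genes). The 30-base stretch of GRCm38 richest in pentamers is shown for 4 members, as DNA on the strand of the gene, with each ATTTA in capitals.

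Nr4a1 (chr15:101274701-101274730, plus strand): gATTTAtatttgtgtattttcctggATTTA
Fos (chr12:85477100-85477129, plus strand): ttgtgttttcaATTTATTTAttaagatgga
Jun (chr4:95049207-95049236, minus strand): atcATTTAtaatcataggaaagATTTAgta
Btg2 (chr1:134076017-134076046, minus strand): aATTTAtttgtagatgtgtgcaatATTTAc

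In Fos the 2 pentamers overlap by their end bases, and the longer element holds the second of them. In Nr4a1, Jun and Btg2 the 2 pentamers of the window stand apart. Of the 10 members 4, Jun, Junb, Jund and Ier2, have a transcript of a single exon, against 8.84% of tested genes with a gene model. Sequence of such genes cannot be told from genomic DNA by splicing. No 50-base window of any member's transcript, taken every 25 bases, occurred in another gene (0 in each). Jun overlaps Junos, Junb overlaps Prdx2 and Jund overlaps Gm11175, each on the opposite strand, and the sources used here do not say whether counting used strand. In the authors' deposited table Prdx2 stood at 0.04 on the log2 fold change scale.

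Levels differed widely between members. Set against transcript length, Egr1 was the highest, with a total of 13532 per kb, above 99.3% of tested genes. Jun had 6354, Fos 4253 and Ier2 3907 per kb, each above at least 97.5% of tested genes. Nr4a1 had 1882 and Junb 1167 per kb, and Btg2 352 and Klf6 203. Jund and Sik1 had 51.6 and 31.5 per kb, below the median of 110 for tested genes. Cultured follicles of both groups together thus had high totals per length for Egr1, Jun, Fos and Ier2, and low ones for Sik1 and Jund.

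Nr4a1 encodes an orphan nuclear receptor, also called NUR77, that is induced by gonadotropins and cyclic AMP and activates steroid synthesis genes in gonadal cells. It lies on chromosome 15 from 101254269 to 101274795 in GRCm38. In the authors' deposited table its total was 4805, and it was 4.75-fold lower in vitrified follicles (p = 0.0013, adjusted p = 0.15). On the log2 scale the authors' deposited table gives -2.25, with a derived 95% interval of -3.62 to -0.88, and 0.0547% of tested genes had a lower value. Of the 10 members, 0 passed the adjusted threshold of 0.05 in the authors' deposited table, where 0.529% of the tested genes passed. With its error, Nr4a1 would have needed a 5.88-fold difference to pass. Its promoter, printed above, held 4 TGACG matches.

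Sik1 encodes salt-inducible kinase 1, which holds CRTC co-activators of CREB in the cytoplasm and is itself a CREB target. On chromosome 17 from 31844250 to 31855804, in the authors' deposited table it had a total of 142 and a level 2.38-fold lower (p = 0.0030, adjusted p = 0.22). On the log2 scale the authors' deposited table gives -1.25, with a derived interval of -2.08 to -0.43. Klf6, on chromosome 13 from 5861482 to 5870394, encodes a Kruppel-like zinc finger factor induced by injury and growth signals. In the authors' deposited table it had a total of 856 and was 1.70-fold lower (p = 0.0038, adjusted p = 0.24). Its log2 value of -0.76 in the authors' deposited table had the narrowest derived interval of the members, -1.28 to -0.25. These 3 were the members with an unadjusted p under 0.05, a mark that 7.02% of tested genes reached in either direction and 3.79% as lower. Since the members were picked with these values known, that count is not set against the background.

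Fos, Jun, Junb and Jund encode subunits of AP-1, a dimer of basic leucine zipper proteins in which FOS must pair with a JUN protein to bind DNA. Fos, on chromosome 12 from 85473890 to 85477273, had in the authors' deposited table a total of 8966 and a log2 fold change of -0.42 (p = 0.65). Its derived interval of -2.23 to 1.38 spans a 4.68-fold lower to a 2.61-fold higher level. Jun, on chromosome 4 from 95049034 to 95052222, stood at -0.11 (p = 0.87) on a total of 20262 in the authors' deposited table, with an interval of -1.45 to 1.22. Neither difference was larger than its error.

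Junb, whose protein often restrains JUN, lies on chromosome 8 from 84974484 to 84978718. In the authors' deposited table its total was 2111 and its log2 fold change was -0.31 (p = 0.66), with a derived interval of -1.68 to 1.06. Jund, on chromosome 8 from 70698949 to 70700616, encodes the JUN protein that is least dependent on stimulation. It stood at -1.06, or 2.08-fold lower (p = 0.15), in the authors' deposited table, on a total of 86.1, with an interval of -2.48 to 0.37. Its value was thus farther from 0 than that of Klf6, and its interval included 0. Differences between members were not tested, because the members were measured in the same follicles and no value per follicle was at hand.

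Egr1 encodes a zinc finger factor that carries growth and gonadotropin signals and binds GC-rich promoters. In the authors' deposited table it had the highest total of the members, 60676, and the log2 fold change closest to 0, -0.02 (p = 0.98), which is 0.0031 when centred on the median of tested genes. It lies on chromosome 18 from 34859823 to 34864984. Even here the derived interval of -1.23 to 1.19 allows a 2.35-fold lower or a 2.28-fold higher level. Ier2, a nuclear protein of the immediate early response, lies on chromosome 8 from 84661331 to 84662852 and stood at -0.17 (p = 0.81) on a total of 5946 in the authors' deposited table, with an interval of -1.51 to 1.17. Btg2 encodes an antiproliferative protein that recruits the CCR4-NOT deadenylase to messengers. On chromosome 1 from 134075170 to 134079120, it stood at -0.55 (p = 0.42) on a total of 965 in the authors' deposited table, with an interval of -1.91 to 0.80.

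All 10 values were below 0, against 53.2% of tested genes, and the median log2 fold change was -0.49 for the members and -0.02 for tested genes. The members were picked with these values known and were measured in the same follicles, so these figures are a description. Egr1 turns positive on centring, which leaves 9 below 0. The interval lay wholly within 2-fold for 0 of the 10 and for 7572 of the 10963 tested genes.

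**Figure D2:**
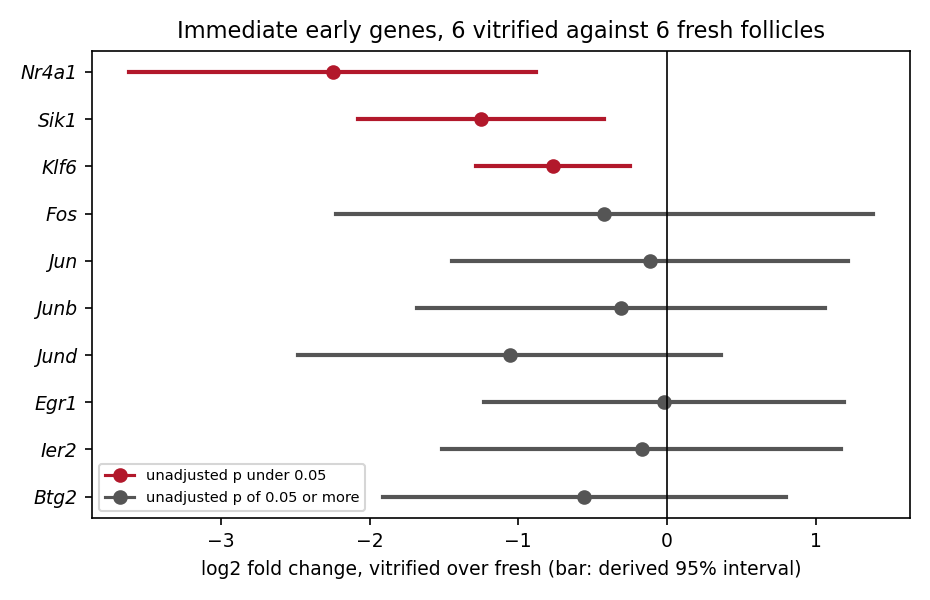
Log2 fold change of each member, vitrified over fresh (point), with its derived 95% interval (bar); red marks an unadjusted p under 0.05. The intervals of Nr4a1, Sik1 and Klf6 lie below 0, and those of the other 7 members cross it.

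The errors differed between the members. Klf6 and Sik1 had derived standard errors of 0.26 and 0.42 on the log2 scale, above 84.0% and 78.5% of the 200 genes nearest to each in total. The other 8 members had errors between 0.62 and 0.92, each above at least 96.9% of the genes of like total, where 10% of genes lie above the 90th percentile by construction. At the upper end of the totals fewer neighbours exist, 195 for Jun and 129 for Egr1. For Nr4a1, Junb, Jun, Ier2, Egr1 and Btg2 the error was 2.97 to 3.60 times the median of the neighbouring genes. For Jund it was 1.59 times and for Klf6 1.24 times that median. For Fos, at 0.92, it was 4.44 times that median and above all 200 neighbours.

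Counting error was small beside most of these errors. If each unit of the total were 1 read, counting would give Fos an error of 0.031 and Egr1 one of 0.012, against the 0.92 and 0.62 derived. It would give Sik1 0.27 against 0.42, Jund 0.33 against 0.73 and Klf6 0.10 against 0.26, the members in which counting is the largest share. For equal spread in both groups, the error of Fos corresponds to an SD between follicles of 1.59 on the log2 scale, or 3.02-fold, and that of Egr1 to 1.07, or 2.10-fold. Klf6 would have an SD of 0.46, or 1.37-fold. These SDs are back-calculated from the deposited p-values, not measured follicle by follicle.

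Among the 977 tested genes with a total above 2000, Fos had the largest derived error. Junb, Nr4a1, Ier2 and Jun held ranks 10 to 13 and Egr1 rank 22, so that all 6 members above that total were among the 25 genes of largest error. The median error of those 977 genes was 0.20. The error rests on the same comparison that served to pick the members, and this count is a description.

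**Figure D3:**
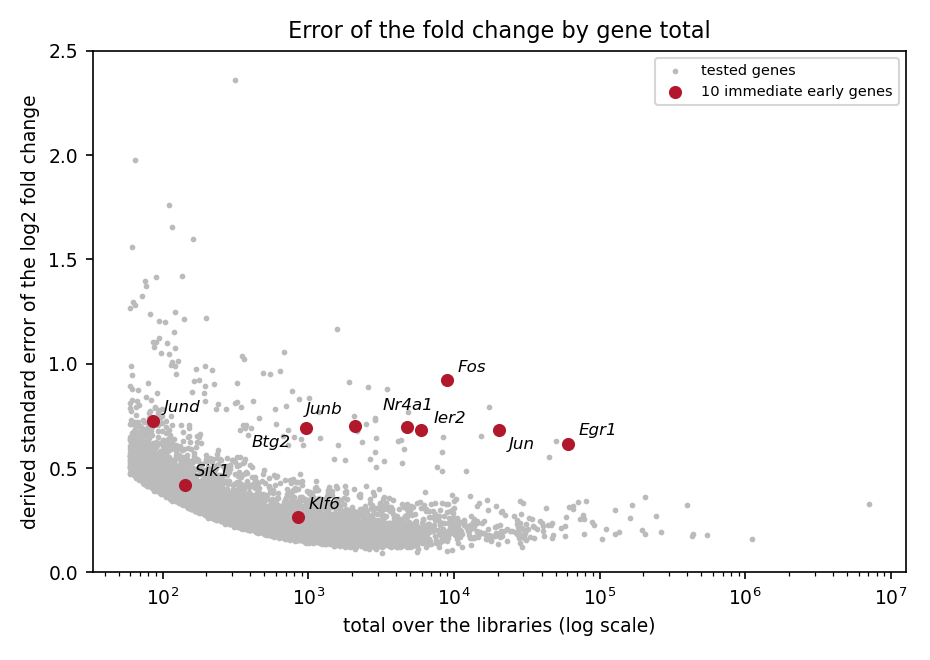
Derived standard error of the log2 fold change against the gene's total over the libraries (log scale), for the 10963 tested genes (grey) and the 10 members (red). Sik1 and Klf6 lie in the band of other genes, and the other 8 lie above it, with 7 of them between 0.62 and 0.73 over totals from 86.1 to 60676.

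A wide error also limits what could be seen. To reach an unadjusted p of 0.05, Fos would have needed a 3.49-fold difference, Egr1 2.31-fold and Jun 2.52-fold, against 1.43-fold for Klf6 and 1.77-fold for Sik1. To pass the adjusted threshold, Fos would have needed 10.3-fold and Klf6 1.96-fold.

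Relatives of the members, grouped by gene family or, for Ier3, by gene name alone, had values on both sides of 0. Of 31 relatives listed, 19 were tested, of which 8 were lower and 11 higher, and the median log2 fold change was 0.01. The number past the adjusted threshold was 0, as was the number with an unadjusted p under 0.05. Nr4a2 and Nr4a3 were not analysed here. Sik2 and Sik3, kinases with the same substrates as Sik1, stood at 0.01 and -0.14 in the authors' deposited table, with intervals within 2-fold. Of the 9 tested Kruppel-like factor genes, 4 were lower and 5 higher, from -0.76 for Klf6 to 0.37 for Klf3 in the authors' deposited table, and 0 had an error above 90% of genes of like total.

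Fosb, the closest relative of Fos, stood at -0.33 in the authors' deposited table with an error of 1.06, above all 200 genes of like total. Fosl2, which encodes FRA2, had a total of 15509 and stood at 0.18 in the authors' deposited table, with an error of 0.24 and an interval of -0.29 to 0.65. Within the FOS family the wide error was thus seen in Fos and Fosb but not in Fosl2. Egr2 stood at -0.30 in the authors' deposited table, with an error of 0.53. Egr3, at 0.28, and Egr4, at -0.07, had totals of only 53.8 and 29.7 in the authors' deposited table and no adjusted p. Ier3, an inhibitor of cell death that shares its name but not a protein family with Ier2, stood at -0.71 (p = 0.11) in the authors' deposited table. Ier5 and Ier5l were not analysed here.

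Among the antiproliferative genes related to Btg2, Btg1 stood at 0.09, Tob1 at 0.07, Btg3 at 0.01, Tob2 at 0.50 and Btg4 at -0.57 in the authors' deposited table. Btg4 is a gene of the oocyte, where it directs the clearance of maternal messengers. The lowest unadjusted p among these 5 was 0.34, for Tob2.

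**Figure D4:**
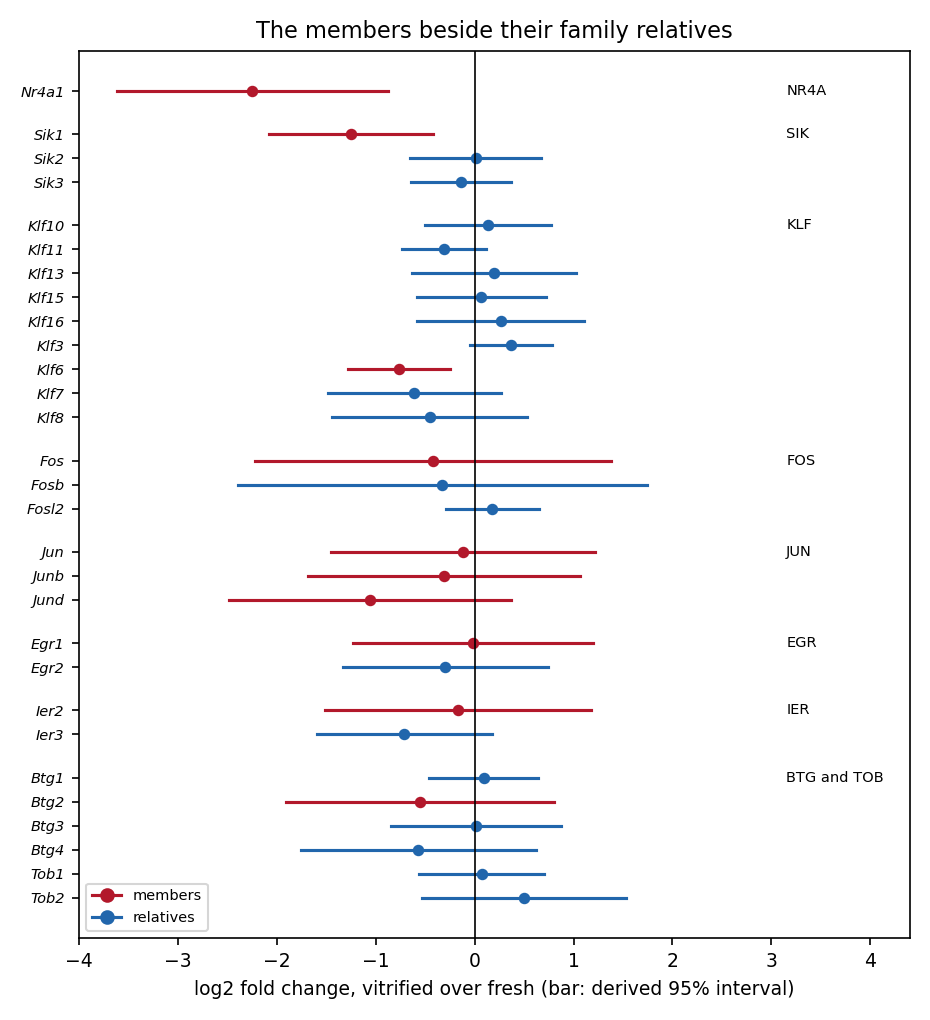
Log2 fold change, vitrified over fresh, with derived 95% intervals for the members (red) and their tested family relatives (blue), with Ier3 placed by name alone. Sik2, Sik3 and Fosl2 have narrower intervals than Sik1 and Fos beside them, and Fosb has the widest.

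Further immediate early genes were taken from a list of 53 genes, of which 30 were tested and 20 were not analysed here. Of the 30, 22 were lower and 8 higher, with -0.25 as the median log2 fold change, and 0 passed the adjusted threshold. Of all tested genes, 53.2% were lower, and 7.02% had an unadjusted p under 0.05 in either direction, 3.79% as lower. In the list, 2 genes had such a p, both lower. These were Ppp1r15a, whose protein (GADD34) restarts translation after stress, at -0.64 (p = 0.043) and Tiparp, a mono-ADP-ribosyltransferase, at -0.48 (p = 0.026) in the authors' deposited table.

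The tested zinc finger and other factors of the list, AP-1 and ATF genes aside, ranged in the authors' deposited table from -0.48 for Myc to 0.68 for Nfkbiz (p = 0.081), a nuclear regulator of NF-kappaB targets. The list held 3 genes with no adjusted p. Of these, Csrnp1 stood at -0.86 on a total of 41.3 and Ereg at 1.54 on a total of 13.9 in the authors' deposited table. The other was Egr3, given above, at 0.28. Atf3, a stress-induced partner of JUN, stood at -0.35 in the authors' deposited table. The feedback inhibitors had 7 of 9 lower, with Dusp1, a phosphatase that switches off MAP kinases, at -0.37 and Spry4, an inhibitor of receptor signalling, at 0.47 in the authors' deposited table. Zfp36 and Zfp36l1, which bind AU-rich elements and start the decay of messengers such as Fos, stood at -0.15 and -0.33 in the authors' deposited table. Of the secreted products, Ccn1 stood at -0.82 (p = 0.20), Hbegf at -0.05 and Ccn2 at -0.01 in the authors' deposited table. Sgk1, a kinase gene induced by hormones and by osmotic stress, stood at -0.74 in the authors' deposited table, and the polo-like kinase gene Plk3 at 0.21.

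Wide errors recurred in this list, with 13 of 30, or 43.3%, above 90% of genes of like total. Fosb, Ccn1, Dusp1, Egr2 and Zfp36 were among them, at the 98.0th percentile or higher. Tiparp, at the 53rd, and Nfkbiz, at the 6th, were not.

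The genes of factors and kinases that switch on immediate early genes had medians near 0. Of 16 tested factors and co-activators, 7 were lower and 9 higher, with a median of 0.03. In the authors' deposited table the gene of serum response factor, Srf, had a total of 53.6 and no adjusted p. The genes of its partners, Elk1, Elk4 and Mrtfb, stood at 0.19, 0.16 and 0.34 in the authors' deposited table. In the CREB arm 2 genes had an unadjusted p under 0.05, in opposite directions. Creb1, the cyclic AMP response factor, stood at -0.78 (-1.35 to -0.20, p = 0.0084, adjusted p = 0.35) in the authors' deposited table. Crtc2, a co-activator of CREB that SIK kinases hold back, stood at 0.69 (0.20 to 1.19, p = 0.0062, adjusted p = 0.32) in the authors' deposited table. The related Crtc3 stood at 0.43 (p = 0.12) in the authors' deposited table.

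Of 32 tested kinase genes 17 were lower and 15 higher, with a median of -0.03 and 0 past the adjusted threshold. The ERK1 gene Mapk3 stood at -0.41 in the authors' deposited table. Map2k3, which activates p38, stood at -0.61 (p = 0.0037, adjusted p = 0.24) and Map2k7, which activates JNK, at 0.37 (p = 0.026) in the authors' deposited table. Among protein kinase A subunits Prkacb stood at -0.30 and Prkar2b at 0.43 in the authors' deposited table, with no p under 0.05. By construction 10% of genes have an error above 90% of genes of like total. Of the 32 kinase genes 1 did, and of the 16 factors 1, beside 8 of the 10 members. The members' errors rest on the comparison that served to pick them, so their count is a description.

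Proteins that work with or against the members gave 26 tested genes, 16 lower and 10 higher, with a median of -0.08. Of these, 0 passed the adjusted threshold and 4 had an unadjusted p under 0.05, against 7.02% of all tested genes. The EGR co-repressor genes Nab1 and Nab2 stood at -0.59 and -0.16 in the authors' deposited table. Of AP-1 partners, Atf2 stood at 0.40 (p = 0.046) in the authors' deposited table. Among the deadenylase genes on which BTG2 acts, Cnot6l stood at -0.96 (p = 0.0054, adjusted p = 0.30) and Cnot3 at 0.43 (p = 0.040) in the authors' deposited table, where 5 of this group were lower and 4 higher. The class IIa deacetylase genes Hdac4, Hdac5 and Hdac7, whose proteins are SIK substrates, stood at 0.13, -0.16 and 0.08 in the authors' deposited table.

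**Figure D5:**
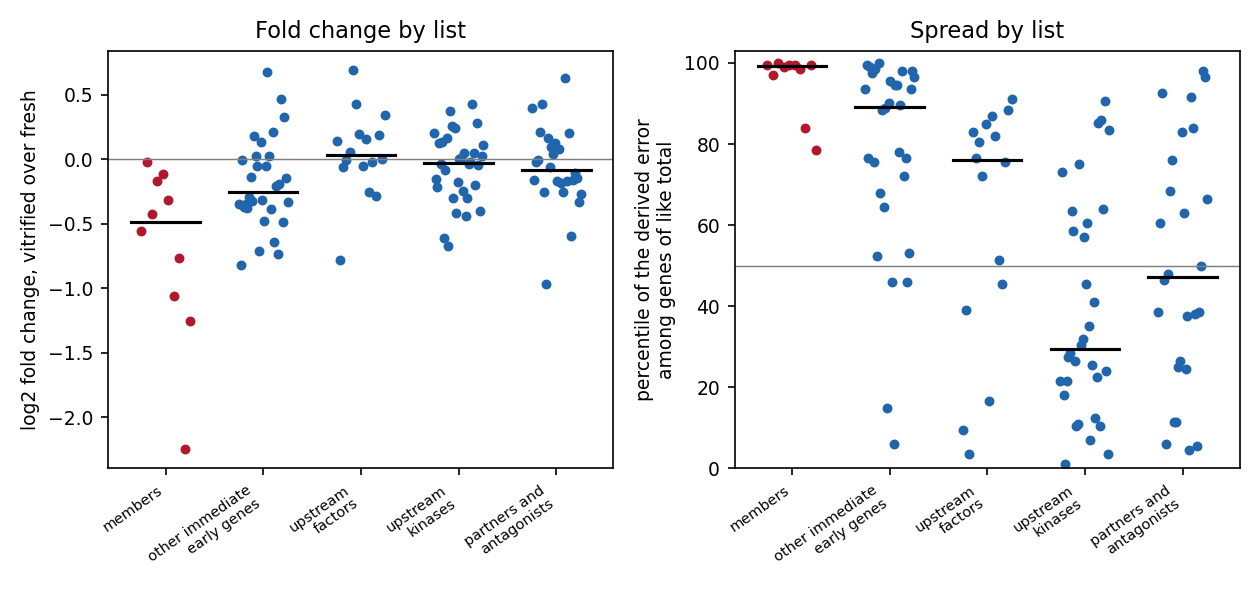
Left, log2 fold change, vitrified over fresh, of the tested genes of each list; right, percentile of each gene's derived error among genes of like total; points are genes and black lines medians. The members' median is -0.49 and that of the other immediate early genes -0.25. The right panel holds 8 of 10 members and 1 of 32 upstream kinases above the 90th percentile, where 10% of genes lie by construction. The members were picked from this same comparison, so their values are a description.

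Single follicles hold granulosa cells, an oocyte and, outside the basement membrane, theca cells with vessels, and fewer cells of a type cannot be told from less RNA per cell in such samples. Granulosa markers were abundant, with 10 of 11 tested at totals of 644 (Foxl2) or more. Of the 10, 6 were lower and 4 higher, with -0.02 as the median log2 fold change. An unadjusted p under 0.05 was found for 2 of the lower and 1 of the higher genes. The lower were Fst at -0.82 and Inhbb at -0.57, and the higher was Fshr at 0.67, in the authors' deposited table. Of the granulosa errors, 1 of 10 lay above 90% of genes of like total. Theca markers had 8 tested of 10, 4 lower and 4 higher, and 6 of 8 errors lay above that mark. Above 0 were Insl3 at 2.70 (p = 0.0012) and Star at 1.60 (p = 0.00082) in the authors' deposited table. So were Cyp17a1 at 1.47 (p = 0.057) and Aldh1a1 at 1.19 (p = 0.00068) in the authors' deposited table. The adjusted p in the authors' deposited table was 0.14 for Insl3, 0.11 for Star and 0.098 for Aldh1a1. Below 0 were Fbln1 at -0.50 (p = 0.0081, adjusted p = 0.34) and Gli2, Nr2f2 and Ptch1 at -0.27, -0.21 and -0.15 in the authors' deposited table. Star and Insl3 are known NR4A1 targets in steroid-making cells, and regulation of these genes by NR4A1 was not tested here. Oocyte markers had 7 of 7 tested above 0, with a median of 0.84, and 5 of 7 such errors. Of the oocyte markers without an adjusted p, Nlrp5 stood at 0.92 on a total of 53.7 and Dazl at -2.14 (p = 0.0030) on a total of 44.3 in the authors' deposited table.

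Endothelial markers had 5 of 5 tested below 0, with a median of -1.25, all 5 with such errors, and Cdh5, the cadherin of vessel walls, at -1.66 (p = 0.069) in the authors' deposited table. The immune marker Lyz2 stood at -1.05 (p = 0.040) in the authors' deposited table, and Ptprc, Cd68, Adgre1, Csf1r and Cd14 were not analysed here. Of the ovarian surface epithelium markers, Krt8 stood at 0.22 in the authors' deposited table. Krt7, with no adjusted p, stood at -1.90 there on a total of 51.5. None of these marker lists held a gene past the adjusted threshold (0 of 32 tested). An unadjusted p under 0.05 was found for 8 of these genes, 4 lower and 4 higher, against 7.02% of all tested genes. Wide errors were thus shared by the members and by markers of theca, oocyte and vessel cells, but not by granulosa markers. The part of these cells in the members' values was not tested.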

How the data were processed

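RNA of 12 single follicles, 6 fresh and 6 vitrified, was sequenced after bead extraction and Smart-seq library preparation, per the labels' protocols. Tools listed in the submitters' processing notes are DESeq2, Partek, HISAT2 and Bowtie2, with mm10 as build and no version, role or order. Per the file headers, the authors deposited 1 table that gives for each gene the log2 fold change, the fold with its sign, a p-value, its step-up adjustment and a total. The deposited total, treated as a signal pooled over libraries, is whole within 0.001 for 0.237% of genes, so it was not used as raw counts. An adjusted p-value was deposited for 10963 genes, those with a total of at least 59.45, and not for 843 of lower total.

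Depth per follicle is unknown. The design had foreseen a count model per library, but the table holds a comparison only, so the authors' adjusted p with a threshold of 0.05 served as the test. A standard error was derived as the log2 fold change over the normal quantile of the p-value, which assumes a two-sided normal test, with 95% intervals from it. It was ranked among the 100 genes on each side in total. The derivation and the adjustment were checked on data simulated with a two-sided normal test. That check covers the arithmetic and cannot show whether the deposited p-values came from such a test. Gene models were from GENCODE M21 (GRCm38), 1 principal protein-coding transcript per gene, and promoters from RefSeq (GRCm38.p6). Python 3.11.15 and scipy 1.17.1 were used.

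The members, lists and alternatives were chosen with earlier results of these data known. Every member is named, with every tested relative outside the Kruppel-like factors. Of other lists, the rule took the 3 genes of each role with the lowest p and both extremes of fold change, of which a part is printed. Srf, Prdx2, Csrnp1, Ereg and the cell type markers named were picked outside it. The ranking of errors was added after the values were seen. Promoters of Sik1, Egr1 and Ier2 were not used here.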

Additional observations from a re-analysis of the deposited data

How the results depend on the processing

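Across the planned and added alternatives, the direction and call of each member were kept except for Egr1, whose log2 fold change of -0.02 became 0.0031 when centred on the median of tested genes. Centring leaves 9 members below 0. The number of members past the adjusted threshold was 0 with a t distribution of 10 degrees of freedom, without a filter on totals, and with totals of at least 120, where Jund drops out. The lowest adjusted p of a member was 1.00, 0.153 and 0.126 in these settings. With the t distribution 0 of all tested genes pass, and the 3 members with an unadjusted p under 0.05 keep it, at 0.0092 for Nr4a1, 0.014 for Sik1 and 0.016 for Klf6. The members' median was -0.42 without Nr4a1. Of the other immediate early genes, 21 of 30 were lower on centring, 23 of 33 without a filter and 19 of 23 at totals of at least 120. In alternatives chosen after seeing the data, 8 members exceeded 90% of genes of like total with 50 genes on each side and with errors derived from a t distribution. With the latter, the error of Sik1 ranks above 16% and that of Klf6 above 53% of genes of like total. No paired analysis was possible because the table holds no value per follicle, and for the same reason no follicle could be left out. Of the members, Sik1, Jund and Klf6, in that order, have the largest share of counting error in the derived error.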

Other observations

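Genes that share the members' wide errors at high totals were looked up after the values were seen. Beside the 6 members, the 25 genes of largest derived error among those with a total above 2000 held the smooth muscle actin gene Acta2 (error 0.89, log2 fold change -0.67), the basement membrane collagen genes Col4a1 (0.77, -0.27) and Col4a2 (0.71, -0.23), and the side-chain cleavage enzyme gene Cyp11a1 (0.79, 0.47) in the authors' deposited table. The luteinizing hormone receptor gene Lhcgr, with a total of 15259, had an error of 0.65 and stood at 0.08 in the authors' deposited table. Thbs1, itself induced by serum, had an error of 0.63 on a total of 50498 and stood at -0.58 in the authors' deposited table. With a minimum total of 1000, 5 of the 6 members above it were among the 25 genes of largest error, and the remaining one, Egr1, was at rank 27 of 2007.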
